A study of Mus musculus with 63 samples.

Results

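The core and linker histone genes measured here are 30 of 19938 named genes on the arrays. They were chosen by symbol alone: every gene whose only listed symbol has the form H1f, H2ac, H2bc, H3c or H4c followed by a number. Symbols beginning Hist1h to Hist4h were allowed as well. Each gene is represented by 1 probe set. By class they are 8 linker H1 genes, 4 H2A, 9 H2B, 3 H3 and 6 H4 genes. By role, 24 are replication-dependent genes, 5 are germline genes (H1f6, H1f7, H1f8, H2ac1 and H2bc1) and 1, H1f10, is a replacement linker. The samples were lymphoma cells from lymph nodes of C57BL/6 mice carrying the Emu-myc transgene, in which the immunoglobulin heavy-chain enhancer drives Myc in B cells. Of 63 Affymetrix arrays, 31 were labelled CTX 4h (4 h after cyclophosphamide, a DNA-alkylating drug) and 32 native, meaning untreated. A single injected dose of 300 mg/kg is stated for 29 CTX 4h arrays, in a label that describes recipients of transplanted lymphomas. The 15 native arrays at 100 ng carry the same text. Per the labels, cells went into RNA extraction with no purification or culture, so other cells of the node contribute RNA. The series text speaks of therapy-naive lymphomas alone, and the labels on cell source describe spontaneous lymphomas of transgenic mice, also for treated samples. If the hosts differed, host and treatment cannot be told apart. The titles give each of the 63 arrays a lymphoma number of its own, so the arrays of a group are separate lymphomas, and no lymphoma is in both groups.

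Histones package DNA. H2A, H2B, H3 and H4 form the octamer that DNA wraps around, and linker H1 binds where DNA enters and leaves it. Replication-dependent histone genes lie in clusters and are transcribed mainly in S phase. Their transcripts end in a stem-loop in place of a poly(A) tail, are held by the stem-loop binding protein Slbp, and are degraded when DNA synthesis stops. Replacement variants are made through the cell cycle from ordinary polyadenylated transcripts. Labelling followed the WT Expression protocol per the labels, which primes along the transcript and not from a poly(A) tail.

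RNA input to labelling and lymphoma number divide the arrays into 4 batches. At 100 ng, numbers starting with 1 hold 6 CTX 4h and 7 native arrays, those starting with 8 hold 9 and 3, and those starting with 9 hold 14 and 5. They are called series 1, 8 and 9. At 300 ng there are 2 CTX 4h and 17 native arrays. No label explains the first digit. The 7 measured B-lineage genes were bright, each at or above the 94.2 percentile of gene means. For CTX 4h against native 6 of these 7 had negative log2 fold changes and none was called. Their median was -0.27 with RNA input in the model and -0.12 with batch. The mean of the macrophage list ran from 8.29 to 10.57 in CTX 4h arrays and from 8.59 to 9.59 in native arrays. All 11 of its genes had positive log2 fold changes, 2 of them called (Cd14 and Fcgr1). Of 6 stromal genes 3 were higher. Of 9 T and NK cell genes 1, Ncr1, was lower. The part of these cells in the histone results was not tested. 2 native arrays stood apart, replicate 8 (100 ng, number starting 9) and replicate 19 (300 ng). Their G2 and mitosis list means were 8.25 and 8.02, whereas the lowest of the other native arrays was 9.78. Replicate 8 was among the 2 lowest native arrays for 18 of the 30 histone genes, and replicate 19 for 17. The counts and the values they moved most are given with and without them. Both were singled out by low values, while CTX 4h arrays nearly as low were kept (lowest G2 and mitosis mean 8.35). Leaving out low native arrays alone makes CTX 4h minus native more negative for the genes low in them. Results without them thus describe that choice and are no added support for lower histone transcripts.

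Histone transcripts shortly after the drug were set against those of untreated lymphomas. With RNA input in the model, 5 of 30 histone genes were lower and 0 higher in CTX 4h arrays at an adjusted p under 0.05 (limma, Benjamini-Hochberg over all 19938 genes). The background was 1.26% of all genes called lower and 1.41% higher. The 5 genes were H2ac4, H2ac1, H2bc14, H4c4 and H4c14. By sign, 23 of 30 log2 fold changes were negative, with a median of -0.14 over the histone genes and -0.01 over all genes. Of all 19938 genes, 10760 were negative. The RNA input model has no term for number series. Series 1 held 7 of 15 native but 6 of 29 CTX 4h arrays at 100 ng, and all 5 genes were higher in it. A series difference is thus mixed into treatment in that model, by an amount that was not tested. With the 4 batches in the model in place of RNA input, H2ac4 was the only one called, against 0.331% of all genes called lower and 0.722% higher. In that model 23 histone signs were again negative and the median was -0.14, while 11296 of 19938 genes were negative with a median of -0.02. Without native replicates 8 and 19 the RNA input model called 13 lower (8.31% of all genes), among them H1f5 (-0.33, adjusted p = 0.0204) and H1f1 (-0.43, adjusted p = 0.0148). The batch model without them called 7: H1f1, H2ac4, H2bc14, H2bc18, H4c4, H4c6 and H4c14 (1.53% of all genes). Both counts follow from leaving out native arrays that were low for many of these genes. In bulk RNA, fewer cells of a type and less RNA per cell cannot be told apart.

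**Figure D1:**
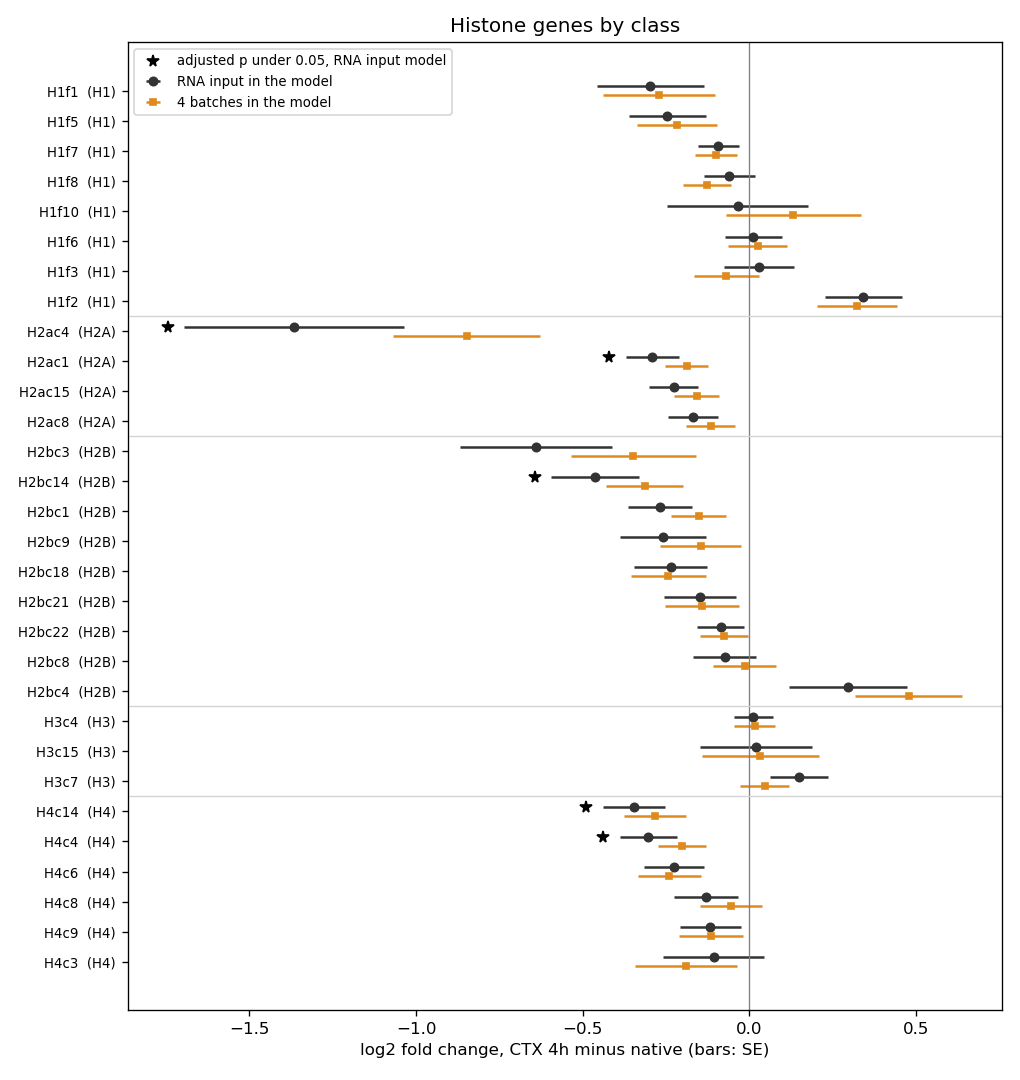
Log2 fold changes of the 30 histone genes, CTX 4h minus native, on the horizontal axis with SE bars, ordered within class. Circles are from the model with RNA input and squares from the model with 4 batches, and stars mark the 5 genes called with RNA input. H2ac4 lies farthest left in both models, and H1f2 and H2bc4 lie farthest right.

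Among the H2A genes all 4 had negative log2 fold changes and 2 were called. H2ac4, a replication-dependent H2A gene, had lowest, median and highest values of 7.52, 8.86 and 12.08 in CTX 4h arrays, against 7.73, 10.06 and 12.30 in native arrays (log2). The groups overlapped over most of this range, and 23 of 31 CTX 4h arrays lay below the native median. CTX 4h arrays averaged 9.37 ± 1.28 (SD, n = 31), and native arrays averaged 10.30 ± 1.13 (SD, n = 32). Its log2 fold change was -1.37 ± 0.33 (SE, adjusted p = 0.0126), which is 2.58-fold lower in CTX 4h. The batch model gave -0.85 ± 0.22 (SE, adjusted p = 0.0371), or 1.8-fold. At 100 ng alone with number series in the model, H2ac4 gave -0.60 (adjusted p = 0.485). H2ac1, a germline gene known from testis, ran at 7.86, 8.43 and 9.24 in CTX 4h arrays, against 8.29, 8.65 and 9.48 in native arrays. Its log2 fold change was -0.29 ± 0.08 (SE, adjusted p = 0.0309), and 20 of 31 CTX 4h arrays lay below the native median. The batch model gave -0.19 (adjusted p = 0.169). H2ac15, whose probe set had the highest mean of the class, gave -0.23 ± 0.07 (SE, adjusted p = 0.0758), and the dim H2ac8 gave -0.17 ± 0.07 (SE, adjusted p = 0.221).

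Of the 9 H2B genes 8 had negative log2 fold changes and 1 was called. H2bc14 ran at 11.49, 12.21 and 13.07 in CTX 4h arrays, against 11.27, 12.66 and 13.26 in native arrays. The lowest native value was that of replicate 19, and without replicates 8 and 19 the native minimum was 12.09. Its log2 fold change was -0.46 ± 0.13 (SE, adjusted p = 0.0408) and -0.31 in the batch model (adjusted p = 0.231). H2bc3 ran at 9.93, 11.25 and 12.80 in CTX 4h arrays, against 9.22, 11.81 and 13.02 in native arrays, with -0.64 ± 0.23 (SE, adjusted p = 0.113). Germline H2bc1 gave -0.27 ± 0.10 (SE, adjusted p = 0.114). Without native replicates 8 and 19 these log2 fold changes were -0.80 for H2bc3 (adjusted p = 0.0074) and -0.32 for H2bc1 (adjusted p = 0.0147). The batch model without those arrays gave an adjusted p of 0.0611 for H2bc3 and 0.128 for H2bc1. H2bc4 had a positive difference that was not called, at 8.49, 9.71 and 11.21 in CTX 4h arrays, against 7.20, 9.43 and 10.69 in native arrays. Its log2 fold change was 0.30 ± 0.18 (SE, adjusted p = 0.387) and 0.48 ± 0.16 (SE, adjusted p = 0.158) in the batch model. The lowest native H2bc4 value was replicate 8, and without that array the log2 fold change was 0.16. Without replicates 8 and 19 it was 0.16 (adjusted p = 0.501) and 0.34 in the batch model (adjusted p = 0.238).

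All 6 H4 genes had negative log2 fold changes and 2 were called. H4c4 ran at 13.11, 13.63 and 14.23 in CTX 4h arrays, against 13.31, 13.92 and 14.33 in native arrays, with -0.30 ± 0.09 (SE, adjusted p = 0.0378). H4c14 ran at 12.21, 12.66 and 13.56 in CTX 4h arrays, against 12.08, 13.06 and 13.54 in native arrays, with -0.35 ± 0.09 (SE, adjusted p = 0.0299). For H4c14, 26 of 31 CTX 4h arrays lay below the native median, and for H4c4 22 did. In the batch model the log2 fold changes were -0.20 for H4c4 (adjusted p = 0.214) and -0.28 for H4c14 (adjusted p = 0.142). H4c6 gave -0.23 ± 0.09 (SE, adjusted p = 0.168). The other H4 genes, H4c3, H4c8 and H4c9, lay between -0.13 and -0.11 and were not called. H4c3 was -0.22 without native replicates 8 and 19 (adjusted p = 0.226).

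The 3 H3 genes with a probe set of their own had small positive log2 fold changes, none called. H3c7 gave 0.15 ± 0.09 (SE, adjusted p = 0.37), H3c4 0.01 ± 0.06 (SE, adjusted p = 0.943) and H3c15 0.02 ± 0.17 (SE, adjusted p = 0.969). Their probe sets were dim, with means of 4.78, 6.66 and 6.14, below the 7.12 median of all gene means.

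The linker H1 genes were mixed, 5 of 8 negative and none called. The replication-dependent genes H1f1 and H1f5 gave -0.30 ± 0.16 (SE, adjusted p = 0.331) and -0.25 ± 0.12 (SE, adjusted p = 0.252). H1f2 ran at 9.29, 10.16 and 11.08 in CTX 4h arrays, against 8.99, 10.01 and 10.82 in native arrays, so that the groups overlapped. Its log2 fold change was 0.34 ± 0.12 (SE, adjusted p = 0.0913), with 19 of 31 CTX 4h arrays above the native median. The replacement linker H1f10, which is not tied to replication, gave -0.03 ± 0.21 (SE, adjusted p = 0.953), and the oocyte linker H1f8 gave -0.06 ± 0.08 (SE, adjusted p = 0.716).

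Probe sets shared by near-identical histone genes, left out of the 30, all gave negative values. There were 26 of them, of which 10 list H3 genes, 7 H2B, 6 H4, 2 H2A and 1 both H1 and H2B. All 26 had negative log2 fold changes, between -0.28 and -0.12 with RNA input and between -0.28 and -0.09 with batch in the model. Of the 19938 genes, 10760 were negative with RNA input and 11296 with batch in the model. The 26 are not separate readings. All 10 H3 probe sets list the same 12 genes, and most of the H2B and H4 probe sets repeat each other's genes. The 2 H2A probe sets, which list 19 and 20 genes, were called with RNA input (adjusted p = 0.0209 and 0.0205), and none was called with batch in the model. These probe sets cannot be assigned to a gene, 4 of them duplicate the values of another, and their means ran from 7.33 to 14.08 on the log2 scale, where the highest value of any array was 14.95. None of the 10 H3 probe sets was called.

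The sequences upstream of 6 genes are shown to let promoter elements known from histone genes be read beside the values. They were picked because these genes were called, had a large difference or, for H1f2, the opposite sign. RefSeq promoters (GRCm38.p6) were found for 26 of 30 genes. The 180 bases before the annotated start are given 5′ to 3′ on the gene's strand, which is the plus strand for all 6. They lie at chr13:23750908-23751087 (H2ac4), chr13:23934257-23934436 (H2ac1), chr13:21721864-21722043 (H2bc14), chr13:23746554-23746733 (H2bc3), chr13:23581388-23581567 (H4c4) and chr13:23738627-23738806 (H1f2). Capitals mark 4 elements. The octamer is ATGCAAAT, which reads ATTTGCAT when it lies on the opposite strand. The CCAAT element is marked on either strand, where it reads as ATTGG on the opposite one. The H1 box, known from linker histone promoters, is AAACACA, and its form on the opposite strand is TGTGTTT. The TATA element was searched on the gene's strand alone, as TATAAA.
H2ac4: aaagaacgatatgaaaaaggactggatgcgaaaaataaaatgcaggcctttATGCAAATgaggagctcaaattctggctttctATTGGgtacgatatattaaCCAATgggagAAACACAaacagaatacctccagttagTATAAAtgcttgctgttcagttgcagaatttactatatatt
H2ac1: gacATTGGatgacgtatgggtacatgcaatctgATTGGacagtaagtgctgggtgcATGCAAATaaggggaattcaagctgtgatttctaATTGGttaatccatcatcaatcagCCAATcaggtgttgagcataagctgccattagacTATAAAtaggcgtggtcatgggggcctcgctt
H2bc14: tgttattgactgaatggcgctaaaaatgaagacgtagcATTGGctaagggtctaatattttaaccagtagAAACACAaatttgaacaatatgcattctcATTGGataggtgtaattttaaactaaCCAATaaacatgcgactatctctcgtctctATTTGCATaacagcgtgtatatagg
H2bc3: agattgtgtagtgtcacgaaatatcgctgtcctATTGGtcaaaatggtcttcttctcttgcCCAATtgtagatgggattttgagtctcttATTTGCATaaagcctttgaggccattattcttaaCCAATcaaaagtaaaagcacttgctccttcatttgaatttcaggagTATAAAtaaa
H4c4: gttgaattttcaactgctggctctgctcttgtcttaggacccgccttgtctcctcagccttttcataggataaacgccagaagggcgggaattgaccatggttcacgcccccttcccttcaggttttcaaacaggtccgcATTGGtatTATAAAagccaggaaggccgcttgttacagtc
H1f2: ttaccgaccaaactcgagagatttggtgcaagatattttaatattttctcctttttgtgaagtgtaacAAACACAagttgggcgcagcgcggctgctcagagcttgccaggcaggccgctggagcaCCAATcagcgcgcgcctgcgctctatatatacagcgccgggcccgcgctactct
The octamer, the site of the Oct1 protein known from H2B promoters, stood 129 bases before the start in H2ac4, 124 in H2ac1, 25 in H2bc14 and 90 in H2bc3. Over the 250 bases upstream, 8 of 26 histone promoters held it, namely 3 of 4 H2A and 5 of 7 H2B promoters and none of the 8 H1, 2 H3 and 5 H4 promoters. Of all 32851 promoters, 1.6% held it. The windows of H2ac1 and H2bc1 share 220 bases and those of H2ac8 and H2bc8 share 179, since these pairs are transcribed away from each other, so their matches are not independent. CCAAT in either orientation was found in 20 of 26 histone promoters, against 33.8% of all promoters. TATAAA was found in 12 of 26, against 7.59%, and the H1 box in 8 of 26, 4 of them H1 genes, against 6.25%. A match describes the letters and not a bound factor. The median log2 fold change for CTX 4h minus native was -0.28 over the 8 genes with the octamer, all negative, and -0.10 over the 18 without, 13 of them negative. The octamer genes are all H2A or H2B genes, so this split follows histone class. The class medians were -0.26 for H2A and -0.24 for H2B. The H2A and H2B promoters without it belong to H2ac15 (-0.23), H2bc9 (-0.26) and H2bc22 (-0.09). Octamer and class cannot be told apart here, and these medians were not tested.

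**Figure D2:**
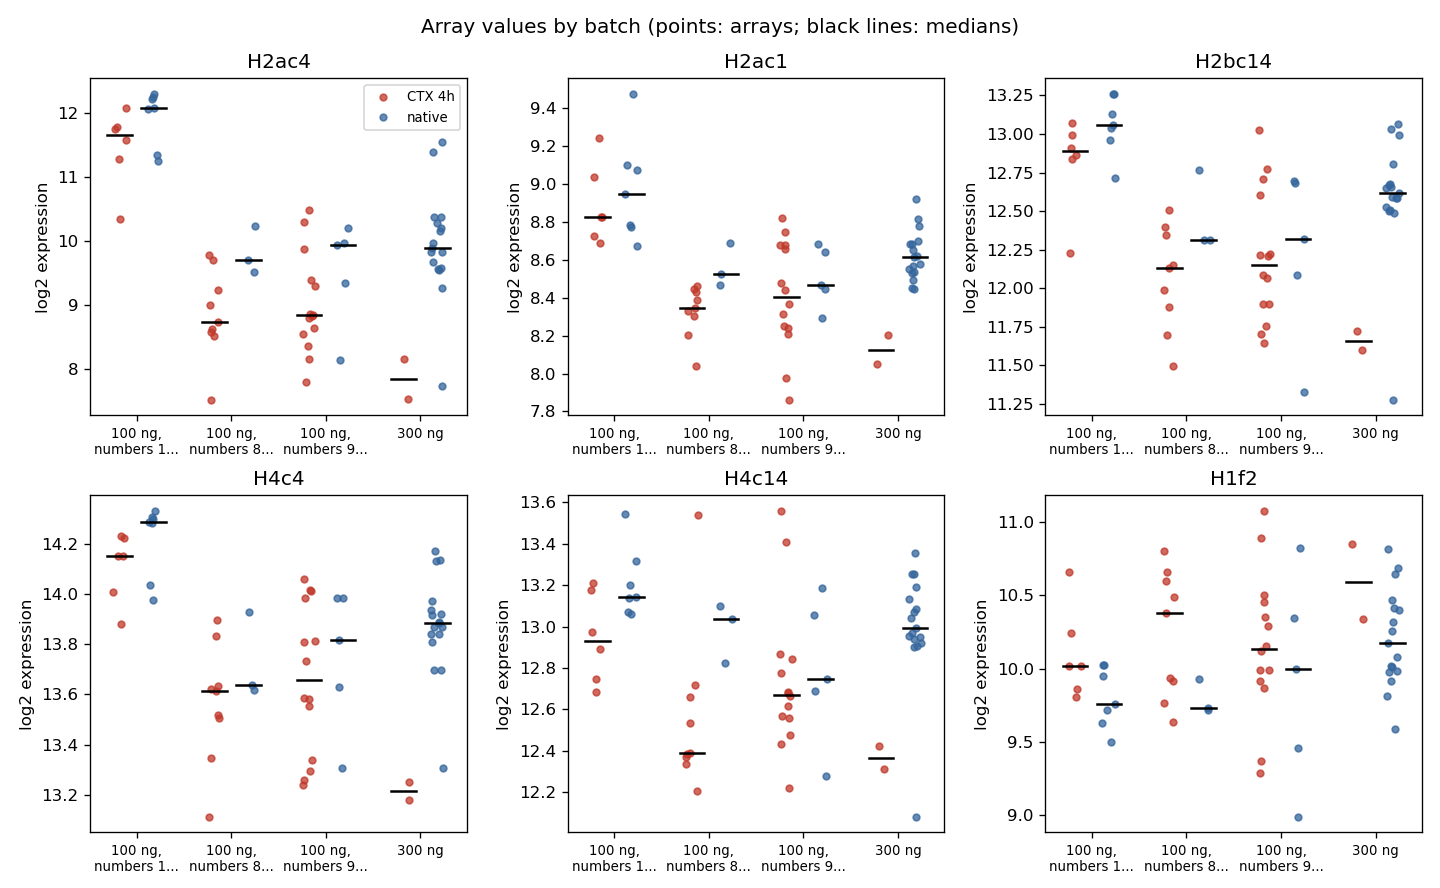
Log2 expression (vertical axis) of 6 histone genes in every array, by batch, with CTX 4h left of native and black lines at medians. H2ac4 is highest in the 100 ng arrays with numbers starting 1 whatever the treatment, and both CTX 4h arrays at 300 ng lie below 16 of 17 native arrays there.

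Within batches the histone genes differed by unequal amounts. At 100 ng no gene of the 19938 was called in any number series, where an unadjusted p under 0.05 was reached by 775, 1157 and 602 genes (series 1, 8 and 9) and by 3, 3 and 0 histone genes. The median log2 difference over the histone genes was -0.11 in series 1, -0.17 in series 8 and 0.02 in series 9, with 22, 23 and 12 of 30 negative. Of all 19938 genes, 9784, 10667 and 9616 were negative there, with medians of 0.002, -0.01 and 0.01. The histone value of series 9 rested on native replicate 8, without which the median was -0.11 and 23 of 30 were negative. Leaving out 1 array at a time gave medians of -0.17 to -0.06 in series 1, -0.26 to -0.08 in series 8 and -0.11 to 0.11 in series 9. At 300 ng the median was -0.47 with 24 of 30 negative, against -0.06 over all genes with 12115 of 19938 negative. There H2ac1 (-0.50 ± 0.11 (SE, adjusted p = 0.0254)) and H4c4 (-0.66 ± 0.15 (SE, adjusted p = 0.0257)) were called lower, against 0.572% of all genes lower and 1.19% higher. Without native replicate 19 the 300 ng batch called 15 histone genes lower, against 3.71% of all genes. Those 15 held 2 of 4 H2A genes, 6 of 9 H2B, 5 of 6 H4, 2 of 8 H1 and 0 of 3 H3 genes. Leaving out 1 array at a time at 300 ng gave histone medians of -0.50 to -0.45. Without either CTX 4h array that group holds 1 array, so calls are not counted.

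The 300 ng contrast rests on 2 CTX 4h arrays. H2ac4 was 7.53 and 8.16 there, against 7.73, 9.90 and 11.54 in the 17 native arrays. The lowest of those native values was replicate 19. H2ac1 did not overlap between the groups at 300 ng. H4c4 was 13.18 and 13.25, against 13.31, 13.89 and 14.18, again without overlap. H2bc4 was 10.05 and 10.14, above all 17 native values, which ran from 8.67 to 10.003, but was not called (0.73, adjusted p = 0.131). The share of all genes without overlap at 300 ng was not computed. These separations are therefore not shown to be particular to histone genes. These 2 arrays had macrophage list means of 10.57 and 10.21, the first the highest of all CTX 4h arrays, and G2 and mitosis means of 8.44 and 8.89, near the CTX 4h minimum of 8.35. The part of either in the histone values was not tested.

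In series 8, H2ac4 ran from 7.52 to 9.78 in 9 CTX 4h arrays, against 9.52 to 10.24 in 3 native arrays, and 7 of the 9 lay below the lowest native value. H2ac1 ran from 8.04 to 8.46 in those CTX 4h arrays, against 8.47 to 8.69 in native arrays, and 9 of 9 lay below. In series 1, H4c14 lay below the lowest native value in 4 of 6 CTX 4h arrays. In series 9 the groups overlapped for each of the called genes. Shares of all genes were not computed for these overlap counts, so they have no background beside them. Across the 4 batches, 9 genes were lower in CTX 4h each time: H2ac1, H2ac4, H2ac15, H2bc3, H2bc14, H2bc21, H4c4, H4c6 and H4c14. H1f2 and H2bc4 were higher each time. Of all genes, 10.4% were lower in all 4 and 8.85% higher in all 4 with every array kept. Native replicate 8 was then left out of series 9 and replicate 19 out of 300 ng. That gave 15 histone genes lower each time, with H1f2 and H2bc4 still higher, by 0.01 and 0.02 in series 9. The share of all genes without those arrays was not computed, so the 15 has no background beside it. The test of whether the difference varied between batches called 0 of 19938 genes (0%; moderated F-test in limma, adjusted p of at least 0.99984 for each histone gene), with 929 genes at an unadjusted p under 0.05. Among the histone genes only H4c4 was at that level (unadjusted p = 0.0428), followed by H2bc9 (0.0587) and H2bc14 (0.0637). A miss by this test does not show that the batches acted alike.

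**Figure D3:**
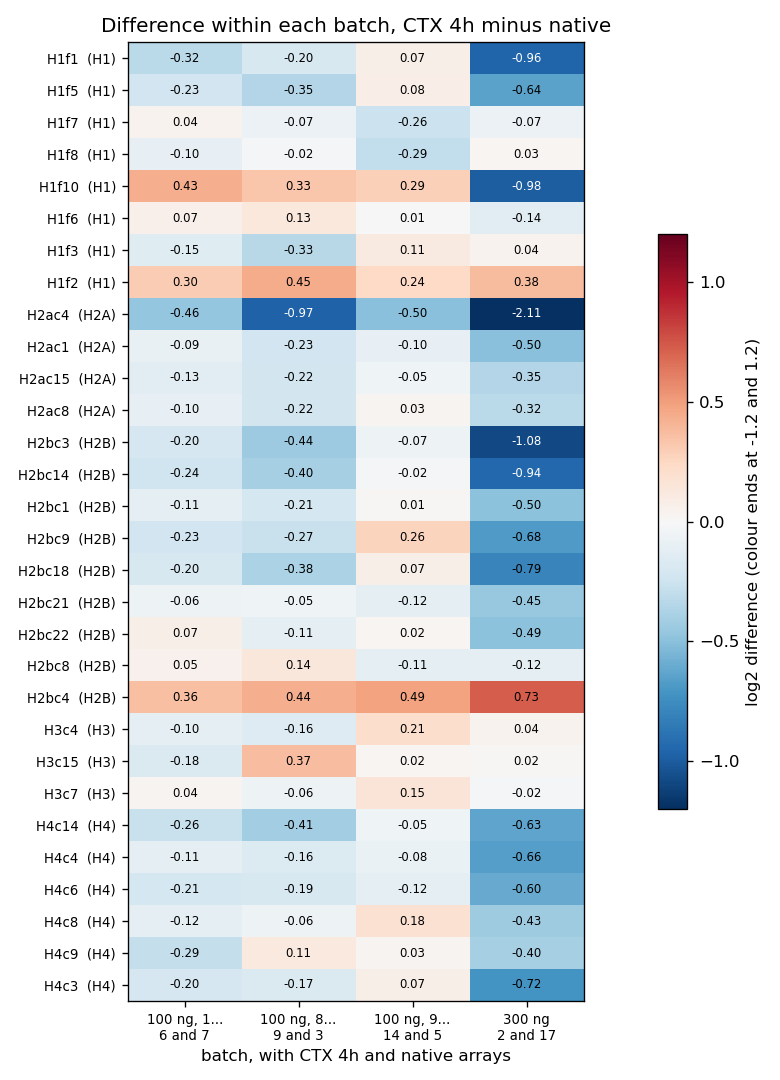
Log2 difference, CTX 4h minus native, of each histone gene (rows, by class) within each batch (columns, with the number of CTX 4h and native arrays); colour and figures give the value. The 300 ng column holds the largest negative value, H2ac4 at -2.11, and the rows of H1f2 and H2bc4 are positive in all 4 columns.

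At 100 ng, histone levels also differed between the number series. Arrays with lymphoma numbers starting 1 were set against those starting 8 and 9 with treatment in the model, a comparison added after the values were seen. It called 14 of 30 histone genes higher and 3 lower in series 1, where the background was 29.4% of all genes higher and 28.6% lower. Whether the counts exceed the background depended on the scaling, as given in the next paragraph. H2ac4 had the largest difference, 2.43 ± 0.22 (SE, adjusted p = 8.96e-12), rank 4 of 19938 genes from the top. H2ac4 ran from 11.25 to 12.30 in native arrays of series 1, against 9.52 to 10.24 in series 8 and 8.14 to 10.20 in series 9, with no overlap. Among CTX 4h arrays it ran from 10.35 to 12.08 in series 1, against 7.52 to 9.78 in series 8 and 7.79 to 10.49 in series 9, which overlaps series 1 at its top. The share of all genes without overlap between the series was not computed. The difference was 2.53 in CTX 4h arrays alone (adjusted p = 6.27e-07) and 2.26 in native arrays alone (adjusted p = 0.000122). Its neighbour on chromosome 13, H2bc3, gave 1.36 ± 0.19 (SE, adjusted p = 1.5e-07).

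By class, 4 of 4 H2A, 6 of 9 H2B, 3 of 6 H4 and 1 of 8 H1 genes (H1f10, 0.84) were higher in series 1, and 0 of 3 H3 genes. The genes lower there were H3c7 (-0.47), H1f3 (-0.45) and H1f8 (-0.31). H1f2 differed by -0.09 and was not called. Shifting arrays to a common median raised the median of all genes by 0.19 and called 18 histone genes higher and 1 lower (8918 of all genes higher and 2186 lower). Quantile normalization called 6 higher and 5 lower, where 21% of all genes were higher and 20.5% lower, so that these shares were near the background. H2ac4 was then at 1.98 and H2bc3 at 0.95, both called, whereas the calls of H2ac1, H2ac15, H1f10, H4c14 and others were lost and H1f2 was among those called lower. In native arrays alone 6 of 30 were higher, against 17.4% of all genes. H1f3 and H1f8 were thus not called under either scaling, and H3c7 not under quantile normalization. Among promoters holding the octamer 7 of 8 genes were higher in series 1, and among the others 5 of 18, which was not tested. This split also follows class, since only H2A and H2B promoters held the octamer. Under quantile normalization the octamer genes H2ac1 and H2bc8 lost the call, and H2bc18, another of them, was called lower. The small nucleolar RNA list moved the opposite way in series 1, with a median of -1.44 over 51 genes and 43 of them lower. The G2 and mitosis list was higher in 23 of 23 genes, with a median of 1.05. Their part in the histone difference was not tested.

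**Figure D4:**
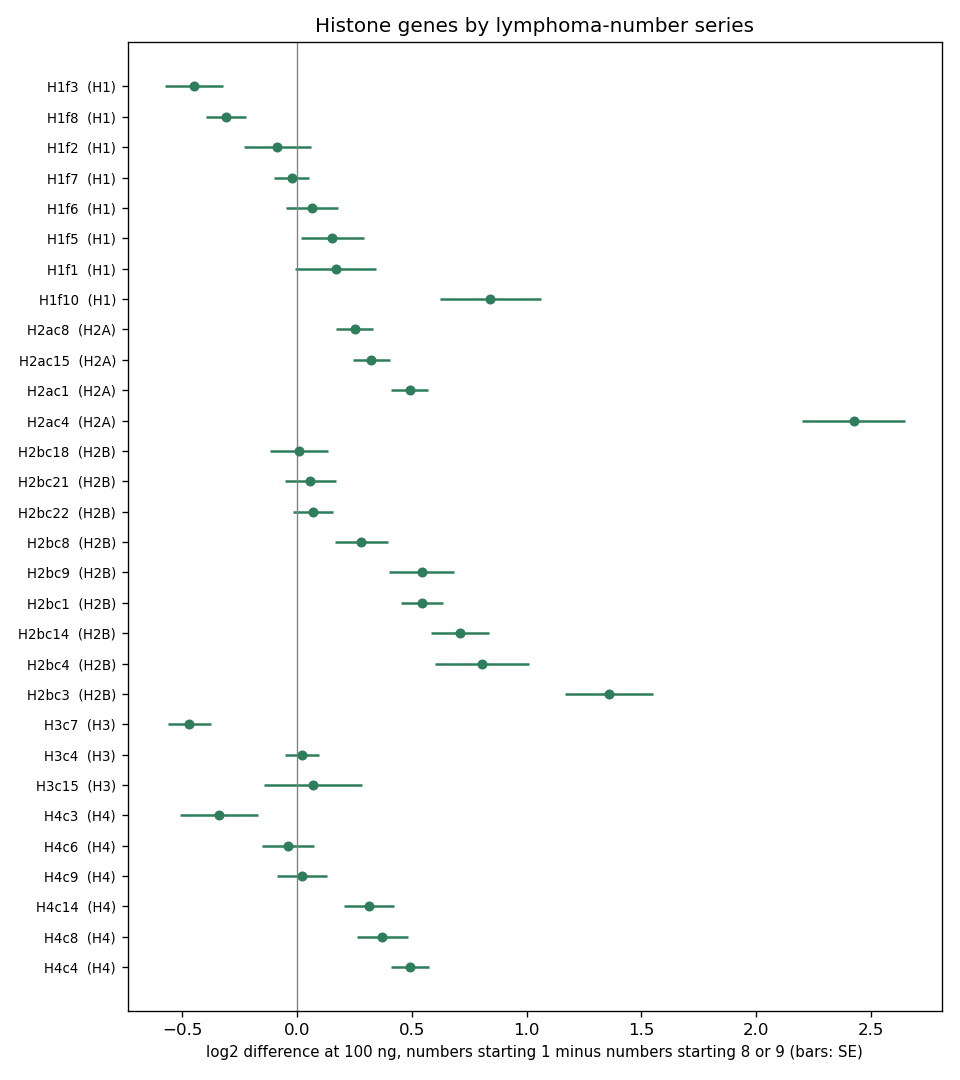
Log2 difference at 100 ng between arrays with lymphoma numbers starting 1 and those starting 8 or 9, with SE bars, for the 30 histone genes by class. H2ac4 lies near 2.43, and the H2A genes are all above 0, whereas H3c7 lies below 0.

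RNA input was compared in the 32 native arrays alone, 17 at 300 ng against 15 at 100 ng. H3c7 was the only histone gene called, with 0.44 ± 0.09 (SE, adjusted p = 0.04), where 0.135% of all genes were called higher. It ran at 4.66, 5.02 and 5.22 at 300 ng, against 3.92 to 4.56 in series 1, 4.57 to 5.15 in series 8 and 4.35 to 5.004 in series 9. Series 1 holds the low values, and without it no histone gene was called, in a fit whose share of all genes is not given here. Next by p-value were H1f3 (0.41 ± 0.11 (SE, adjusted p = 0.0866)), H1f2 (0.37 ± 0.13 (SE, adjusted p = 0.219)), H4c6 (0.23 ± 0.11 (SE, adjusted p = 0.372)) and H4c3 (0.39 ± 0.19 (SE, adjusted p = 0.374)), none called.

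Correlations between the histone genes across lymphomas ranged widely. After removal of batch means, the median correlation over 435 pairs was r = 0.37 in the 31 CTX 4h arrays and r = 0.36 in 30 native arrays (0.43 with replicates 8 and 19). Over the 276 pairs of replication-dependent genes it was 0.46 and 0.45. All correlations here share arrays and normalization and are descriptions. No value was computed for pairs of other genes, so co-variation particular to the histone genes is not shown. A probe set may also take signal from near-identical histone genes. H2bc14 varied most like H2bc3 in CTX 4h arrays (r = 0.92, rho = 0.94) and most like H4c4 in native arrays (r = 0.94, rho = 0.94). The gene closest to H2ac4 was H4c4 in both groups (r = 0.89 in CTX 4h and 0.84 in native arrays). H4c14 was closest to H2bc18 in CTX 4h arrays (r = 0.84) and to H2ac1 in native arrays (r = 0.72).

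H1f2 and H2bc4, both positive in all 4 batches, were each other's closest histone gene in CTX 4h arrays. They correlated at r = 0.86 and rho = 0.85 in CTX 4h arrays, and at r = 0.53 and rho = 0.52 in native arrays without replicates 8 and 19. Without the 2 arrays farthest from the H1f2 median these were r = 0.80 and r = 0.43. Their median correlations with the other histone genes were 0.11 (H1f2) and 0.16 (H2bc4) in CTX 4h arrays, against 0.09 and 0.02 in native arrays. In native arrays H1f2 was somewhat closer to H3c15 (r = 0.56).

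Most histone genes had a higher signed r with the G2 and mitosis list than with the S-phase list. A less negative r counts as higher, as for H1f6 in CTX 4h arrays (-0.29 against -0.48 for S phase). The correlation with the G2 and mitosis mean was the higher of both for 22 of 30 genes in CTX 4h arrays. In native arrays without replicates 8 and 19 it was for 23 of 30. Shares of all genes were not computed for the counts in this paragraph, so they are not shown to be particular to histone genes. H4c4 reached r = 0.90 and rho = 0.86 with it in CTX 4h arrays and r = 0.87 and rho = 0.88 in native arrays. H2ac4 reached r = 0.87 and rho = 0.84 in CTX 4h arrays and r = 0.84 and rho = 0.81 in native arrays. Without the 2 arrays farthest from the list median r was 0.83 and 0.78. With the S-phase mean H2ac4 gave r = 0.49 and rho = 0.40 in CTX 4h arrays and r = 0.72 and rho = 0.69 in native arrays. H2bc4 gave r = 0.17 and rho = 0.14 with the G2 and mitosis mean in CTX 4h arrays and r = -0.03 and rho = -0.07 in native arrays. With replicates 8 and 19 kept, 17 genes exceeded r = 0.5 with each list, against 10 (G2 and mitosis) and 4 (S phase) without them. Across CTX 4h arrays the correlation of H2ac1 with the macrophage mean was r = -0.83 and rho = -0.75, whereas native arrays gave r = -0.45 and rho = -0.41.

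**Figure D5:**
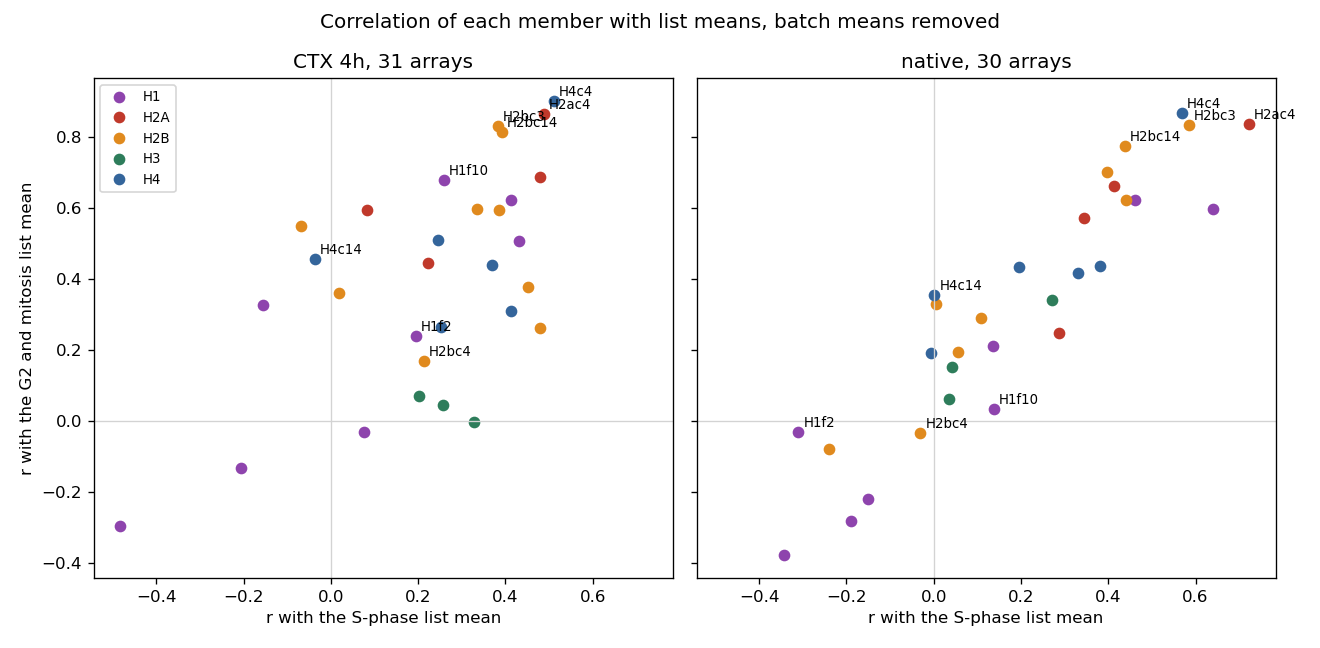
Correlation of each histone gene with the mean of the S-phase list (horizontal) and of the G2 and mitosis list (vertical) after removal of batch means, in CTX 4h arrays (left) and native arrays without replicates 8 and 19 (right), coloured by class. H4c4, H2ac4, H2bc3 and H2bc14 lie at the top in both panels, and H1f2 and H2bc4 lie near 0 for G2 and mitosis in native arrays.

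The cell-cycle lists themselves differed between the groups. Of 23 G2 and mitosis genes 10 were lower in CTX 4h arrays and all 23 were negative, with a median of -0.71. With batch in the model 3 were lower and the median was -0.46. Kif2c and Aurka, a mitotic kinesin and a mitotic kinase, gave -1.01 ± 0.21 (SE, adjusted p = 0.00391) and -1.03 ± 0.23 (SE, adjusted p = 0.00549). Of 29 S-phase genes none was called, with a median of 0.01, or 0.12 with batch in the model. The licensing factor gene Cdc6 gave 0.30 ± 0.11 (SE, adjusted p = 0.142) and Ccne2, a cyclin of S-phase entry, 0.45 ± 0.20 (SE, adjusted p = 0.228). With the G2 and mitosis mean in the model the histone median was 0.01, H2ac4 gave -0.34 (adjusted p = 0.159), and none of the 5 called genes passed. H2bc4 was then called higher (0.57, adjusted p = 0.0432) and the oocyte linker H1f8 lower (-0.21, adjusted p = 0.0473), where 3.66% of all genes were higher and 1.83% lower. With the S-phase mean in the model 8 were called lower, among them the 5, and H1f2 higher (0.34, adjusted p = 0.0488), where 5.97% of all genes were lower and 3.24% higher. With the mean of small nucleolar RNAs in the model none was called, and H2ac4 gave -0.43 (adjusted p = 0.681), where 0.00502% of all genes were lower and 0.12% higher. Of those 51 RNA genes 30 were higher in CTX 4h arrays. The G2 and mitosis list and the small nucleolar RNA list thus differed between the groups themselves. A model holding such a mean takes up any treatment difference that runs along with it, whatever the reason. The part of either list in the histone values was not tested.

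Genes that make, hold or destroy histone transcripts and proteins gave no call in the RNA input model. None of 18 genes of histone transcript processing and control was called, 15 being negative with a median of -0.16. With batch in the model 12 were negative and the median was -0.05. Zfp473, a zinc-finger partner of the U7 particle that cuts histone transcripts, gave -0.21 ± 0.06 (SE, adjusted p = 0.0529). Coil, the Cajal body scaffold, gave -0.35 ± 0.12 (SE, adjusted p = 0.109), the U7 subunit gene Lsm10 -0.32 ± 0.12 (SE, adjusted p = 0.132) and the cap-binding gene Ncbp2 -0.40 ± 0.17 (SE, adjusted p = 0.195). None of 12 decay genes was called. Atr, the replication-stress kinase, gave -0.31 ± 0.12 (SE, adjusted p = 0.132), and Lsm1, a subunit of the ring that binds histone transcripts for decay, -0.18 ± 0.10 (SE, adjusted p = 0.345). None of 15 chaperone genes was called, with 13 negative under RNA input but 5 negative with batch in the model. Ipo4, an importin that carries H3 and H4, gave -0.32 ± 0.11 (SE, adjusted p = 0.112), and Asf1a, an H3 and H4 chaperone, -0.22 ± 0.15 (SE, adjusted p = 0.471). None of 9 replacement-variant genes was called, H1f10 included. H2ax, whose product is phosphorylated at DNA breaks, gave -0.34 ± 0.17 (SE, adjusted p = 0.273), and Cenpa, the centromeric H3, -0.33 ± 0.19 (SE, adjusted p = 0.352).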

How the data were processed

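Biotin-labelled lymphoma RNA from 63 samples was hybridised to Affymetrix arrays. Labelling started from 100 or 300 ng, as the labels state. The authors deposited log2 values for each probe set. Partek 6.5 and RMA, a method of background correction, normalization and probe summary, are named in the submitters' processing notes. The authors' other settings are not given in the sources used here. Array medians ran from 6.53 to 7.11. The number of arrays, not read depth, limits precision.

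The platform annotation lists 1 symbol for 21789 of 35557 probe sets, several for 1621 and no symbol for 12147. For each of 19938 genes the brightest probe set with only that symbol was used, and 19856 matched a RefSeq gene ID. Probe sets with several symbols were left out of the 30 members.

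The fits used limma 3.58.1 in R 4.3.3 (lmFit, eBayes, two-sided, Benjamini-Hochberg over all genes, threshold 0.05). Treatment and RNA input were terms. Batch in the model, fits within batches, a treatment by batch interaction, RNA input within native arrays and a comparison of number series were run as well. On simulated data for CTX 4h against native over 19938 genes, 84 of 100 genes changed by 0.5 and 100 of 100 changed by 1 (log2) were recovered, and 13 unchanged genes were called. The simulated noise was independent between genes and held no differences between batches. These counts therefore need not hold for the real arrays. Genes given in full were the called members, the 3 smallest p-values and the highest mean in each class, the 5 smallest p-values for RNA input, the 3 smallest interaction p-values, the 3 largest spreads in native arrays, and up to 4 genes of each other list. Promoters came from RefSeq (GRCm38.p6). The comparison of number series, the fits without native replicates 8 and 19 and the leave-one-out fits within batches were chosen after seeing the data. Members and lists were chosen with earlier results of these data known. Other settings are given in the closing section.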

Additional observations from a re-analysis of the deposited data

Results flagged for a closer look

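In groups of 4 to 10 arrays of 1 batch and treatment, 16 histone genes were searched for a lowest or highest array far from the rest by Dixon's test, 64 groups in all. It marked 8 of them, where chance marks about 1 in 20 groups. The 16 genes were read in the same arrays and many correlate, so the groups are not independent and the 8 cannot be weighed against that share. Native replicate 8 lay far below the other native arrays of series 9 for 3 genes, with 7.20 for H2bc4, 9.87 for H2bc3 and 10.67 for H1f1. CTX 4h replicate 24 lay far below the other CTX 4h arrays of series 1 for 3 genes, with 12.23 for H2bc14, 12.64 for H2ac15 and 11.44 for H4c6. In the native arrays of series 1, replicate 9 lay far below the rest for H4c6, at 11.58. In the CTX 4h arrays of series 8, replicate 3 lay far above the rest for H4c14, at 13.54. Native replicate 19 sits in a group of 17 arrays, which is too large for this search.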

How the results depend on the processing

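No paired analysis was possible because no lymphoma number is in both groups and the titles share only replicate number 1. Of the 5 genes called lower with RNA input in the model, each kept its sign in all 16 other settings. The number called lower was 2 without an RNA input term (0.918% of all genes), 1 with batch in the model (0.331%) and 1 with a common median (0.727%). At 100 ng alone it was 0 (0.1%). At 100 ng with number series it was 0 (0.015%), and 0 also without native replicate 8 (0.0802%). With a list mean in the model it was 0 for small nucleolar RNAs (0.00502%), 8 for S phase (5.97%) and 1 for G2 and mitosis (1.83%). It was 16 with array weights, where 18.4% of all genes were lower, and 13 without native replicates 8 and 19, where 8.31% were. The number called higher was 1 with the S-phase mean (3.24% of all genes) and 1 with the G2 and mitosis mean (3.66%). It was also 1 with quantile normalization (2.11%) and 1 with array weights (10.8%). The causes were not tested. Leaving out 1 array at a time gave 1 to 10 genes lower and 0 to 1 higher, in fits whose shares of all genes are not given here. The count was 10 without native replicate 8, 3 without CTX 4h replicates 9, 11, 12, 19, 21 or 23 or native replicates 9, 11 or 13, 2 without native replicate 10, and 1 without native replicates 12, 14 or 15 or CTX 4h replicates 30 or 31. The count higher was 1 without native replicate 7. H2ac4 stayed called in 63 of 63 such fits, H4c14 in 58, H2ac1 in 57, H4c4 in 48 and H2bc14 in 45. All these fits held RNA input and not number series, so they do not address the uneven spread of series 1. Within 300 ng, leaving out native replicate 19 gave 15 genes lower (3.71% of all genes). Without either CTX 4h replicate that group holds 1 array, so no count is given. For RNA input in native arrays the count higher was 0 with a common median and 0 without series 1, and 0 to 2 when 1 array was left out. It was 2 without replicates 1 or 4 and 0 without any of 17 others, namely 9 to 17, 20, 23 to 26 and 30 to 32. Shares of all genes are not given for these RNA input fits, so the counts have no background beside them. For series 1 against 8 and 9, native arrays alone called 6 higher and 1 lower (17.4% and 11.4% of all genes). A common median called 1 lower (11%), and quantile normalization 6 higher and 5 lower (21% and 20.5%). The interaction called no histone gene in any of 4 settings, and 1 gene of all with trend and robust. Near-identical histone genes share probes, so a single-symbol probe set may still take signal from relatives.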

Other observations

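The 2 histone genes that run as neighbours in the chromosome 13 cluster and in the number-series comparison, H2ac4 and H2bc3, also had the largest spread between native lymphomas within batches. The SDs were 0.741 and 0.663 (log2) over 32 arrays, and 0.546 and 0.349 without replicates 8 and 19. H1f10 followed with 0.633 and kept 0.656 without them, so that it was then the most variable of the 30. In CTX 4h arrays the SDs were 0.714 for H2ac4, 0.705 for H1f10 and 0.603 for H2bc3. H1f10 ran from 7.34 to 10.57 in CTX 4h arrays and from 7.60 to 10.02 in native arrays. Its correlation with the G2 and mitosis mean was r = 0.68 and rho = 0.73 in CTX 4h arrays, against r = 0.03 and rho = 0.07 in native arrays without replicates 8 and 19. The difference between these correlations was not tested.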
